A study of Rattus norvegicus with 4 samples.

Results

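The golgins are long coiled-coil proteins that sit on the membranes of the Golgi apparatus and catch passing vesicles, and ninein and ninein-like protein are coiled-coil scaffolds that hold microtubules at the centrosome. The set described here holds 9 genes, Golga5, Golga1, Golga2, Golga3, Golga4, Golga7, Golgb1, Ninl and Nin, picked by name from 14410 genes of the deposited table, in which all 9 were present. The small spread between replicates of Golga5 and Ninl was known beforehand, though for Ninl it held only in the control libraries. All 9 were picked with such earlier results of these data in view, among them the low values of Golga5 and Ninl in the libraries with added Phf8. The differences between the groups reported for these 9 genes are therefore descriptions without a p-value. Whether a member passed the threshold of the fit over all genes is part of that description and no separate evidence.

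RNA-seq had been carried out on CG4 cells, a rat line of oligodendrocyte progenitors that can be made to differentiate into oligodendrocytes, the glia that wrap axons in myelin. The Phf8oe group was wild-type CG4 cells transduced with a retrovirus that carried CAG-Phf8-IRES-GFP, and the ctrl group was wild-type CG4 cells transduced with CAG-IRES-GFP, with 2 biological replicates in each. In both groups the CAG promoter drove the insert, GFP-positive cells were sorted 2 days after transduction and expanded, and RNA was taken after 3 days in differentiation medium. Phf8 is a histone lysine demethylase, and the comparison asks which genes respond to a raised level of it. The labels call the replicates biological without saying how they were separated, so p-values measure only the spread between these libraries, which may be technical.

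In a differentiating oligodendrocyte, the Golgi apparatus processes and ships the lipids and membrane proteins that build myelin, and small Golgi outposts in the processes serve as sites where microtubules start. Golgins hold Golgi cisternae together and sort incoming vesicles, each at its own part of the stack, through small GTPases of the Rab and Arl families. Nin and Ninl, shown with the human proteins to activate the motor dynein as well, tie the minus ends of microtubules to the centrosome.

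The deposited values were normalized counts, scaled between libraries by the authors. They summed to between 39945215 and 41149255 per library, and about 43100000 and 28400000 reads in the Phf8oe libraries and 47800000 and 39300000 reads in the ctrl libraries lay behind them. Phf8 had 5650 and 10796 normalized counts in Phf8oe and 2026 and 2205 in ctrl (log2 fold change 1.89, SE 0.35, limma adjusted p = 0.0631), so the transduced gene was higher in both Phf8oe libraries without passing the threshold. Leaving out ctrl replicate 1 or 2 kept it so (adjusted p = 0.348 and 0.185), and leaving out Phf8oe replicate 1 or 2 took it past the threshold (adjusted p = 9.51e-12 and 3.16e-08, log2 fold change 2.35 and 1.42). Of 15 alternative settings 4 called Phf8 higher, the other two being the replicate block (adjusted p = 0.0313) and moderation that was not robust (adjusted p = 0.0194). All 12 oligodendrocyte markers looked at were listed, and their summed normalized counts were 732885 and 673338 in Phf8oe and 476425 and 470177 in ctrl. The 7 listed of 9 astrocyte markers summed to 44923 and 54849 in Phf8oe and 133902 and 137018 in ctrl, 8 listed of 9 neuron markers to 17409 and 17943 in Phf8oe and 30010 and 24061 in ctrl, and 2 listed of 8 microglia markers to at most 71 in Phf8oe and 101 in ctrl. The 6 progenitor markers summed to 65301 and 57976 in Phf8oe and 88058 and 86884 in ctrl, the 6 Schwann cell markers to 5349 and 6538 in Phf8oe and 5870 and 5112 in ctrl, and Col1a1, the 1 listed of 8 fibroblast and pericyte markers, had 121 and 164 in Phf8oe and 454 and 437 in ctrl. The oligodendrocyte, progenitor, astrocyte and neuron sums and Col1a1 did not overlap between the groups, and the microglia and Schwann cell sums did. The most abundant genes weigh most in such sums, as Mbp did among the oligodendrocyte markers (340486 and 308875 in Phf8oe, 184442 and 173338 in ctrl). Of the 12 oligodendrocyte markers 5 were called higher and none lower. Among the 6 progenitor markers 2 were called lower, and Gpr17 lay above 0. Among the 8 neuron markers only Nefm was called, as lower, and Map2 and Elavl3 lay above 0. Within the astrocyte list 2 markers were called lower (Gfap and Atp1b2) and 2 higher (Aldh1l1 and Slc1a3), and Gfap, with 10834 and 19613 in Phf8oe and 79141 and 80736 in ctrl, made up most of the difference in the sum. The part of these cell type markers in the values of the 9 genes was not tested. In bulk libraries, fewer cells of a type and less RNA per cell cannot be told apart.

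The windows just before the annotated transcript starts are shown for the pair of genes that fell, Golga5 and Ninl. Golga1 and Golga3, whose levels were close between the groups, are shown beside them. The annotated start used for Ninl lies 32 kb inside the gene's span, so its window is not at the outer end of the gene. The sequences are from RefSeq on the GRCr8 assembly, an assembly other than that of the counts, and 7 of the 9 genes had a window in the RefSeq table (Golga4 and Golga7 are named only). Each line holds the 250 bases before the annotated start, read on the strand of the gene. Capitals mark ACGTGGC, known from human cells as the Golgi stress response element, and TGACG, the half-site of the cAMP response element, each on either strand; the letters of both motifs overlap in TGACGTGGC.
Golga5 (chr6:127376994-127377243, plus strand): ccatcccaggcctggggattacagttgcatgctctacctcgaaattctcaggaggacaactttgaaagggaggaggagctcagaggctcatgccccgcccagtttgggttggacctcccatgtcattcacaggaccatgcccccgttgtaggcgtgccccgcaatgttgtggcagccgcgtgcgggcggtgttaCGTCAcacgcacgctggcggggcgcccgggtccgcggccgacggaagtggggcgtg
Ninl (chr3:160243103-160243352, minus strand): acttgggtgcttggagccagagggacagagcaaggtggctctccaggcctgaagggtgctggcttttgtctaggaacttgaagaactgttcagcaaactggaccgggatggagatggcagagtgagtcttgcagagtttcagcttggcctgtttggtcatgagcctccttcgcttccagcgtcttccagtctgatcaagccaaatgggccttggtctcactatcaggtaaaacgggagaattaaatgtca
Golga1 (chr3:43222320-43222569, minus strand): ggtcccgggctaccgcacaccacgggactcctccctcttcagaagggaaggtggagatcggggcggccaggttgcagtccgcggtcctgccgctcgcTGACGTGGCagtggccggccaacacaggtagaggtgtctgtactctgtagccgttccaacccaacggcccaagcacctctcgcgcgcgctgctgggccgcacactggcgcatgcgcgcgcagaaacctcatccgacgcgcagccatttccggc
Golga3 (chr12:52160227-52160476, minus strand): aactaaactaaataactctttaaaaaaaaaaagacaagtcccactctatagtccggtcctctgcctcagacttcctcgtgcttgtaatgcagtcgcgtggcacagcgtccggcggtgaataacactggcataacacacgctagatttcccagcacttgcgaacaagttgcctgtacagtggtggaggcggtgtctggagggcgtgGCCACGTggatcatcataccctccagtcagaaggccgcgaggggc

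In the Golga5 window 1 half-site began 56 bases before the start, and ACGTGGC was not found among its letters. Golga1 held the joined TGACGTGGC 153 bases before its start, and Golga3 held ACGTGGC on the other strand 45 bases before its start. Golgb1 carried the same joined letters as Golga1, just after its annotated start, in a site on the minus strand (chr11:77405957-77405986).
Golgb1: gcgcttgggttacccgagcTGACGTGGCtt
Over the full windows of 300 bases, which run 50 bases past the start, ACGTGGC was found for 3 of the 7 genes with a window (Golga1, Golga3 and Golgb1) and for 2.3% of all 33469 RefSeq promoter windows. TGACG was found for 4 of the 7 genes, Golga5 among them, for 21.2% of all windows and for 31.4% of those of tested genes. Among the tested genes with a window, 358 of 9954 held ACGTGGC (3.6%). Of all tested genes, with or without a window, 7.64% were called different between the groups. Called means a Benjamini-Hochberg adjusted p under 0.05 in the limma fit over all genes. Of the 358 genes with ACGTGGC, 26 (7.26%) were called. Of the 133 genes with a window in the Golgi and centrosome lists described further on, 18 held ACGTGGC (13.5%). Among them were the Golga2 partner Uso1, the GTPase genes Arl1, Arf1, Arf4 and Arf5 and the coat genes Arcn1, Copg1, Sec13, Sec23a and Sec31a. These motifs were chosen after the windows had been seen. The windows shown for genes that were not called (Golga1, Golga3 and Golgb1) all held ACGTGGC. Golga2 and Nin were not called either, and their windows held neither motif, like that of Ninl. The Ninl window lies inside the gene, so it cannot show whether the outer end of Ninl holds either motif. The part of these motifs in the values of the members was not tested.

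The Ninl window held the fewest CpG dinucleotides of the 7, with 6 in 300 bases, against 28 for Golga5, 36 for Golga1, 37 for Nin and a median of 21 over the tested genes. The start that the RefSeq table uses for Ninl lies 32 kb inside the gene's annotated span, so it is not the window at the outer end of the gene. Its CpG count therefore does not describe that end and is not like for like with the other windows. For the other 6 genes the start lay within 159 bases of the end of the span.

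The membrane-anchored golgins come first. Golga5 encodes a golgin held in the membrane by its tail end, found on early Golgi cisternae and their rims, where it works with Rab1 in tethering and in keeping cisternae in ribbons. Golga5 had 4509 and 4769 normalized counts in the Phf8oe libraries, against 13405 and 12824 in the ctrl libraries. Both Phf8oe libraries stood far below both ctrl libraries, at a mean of 35.4% of the ctrl mean. In log2 fold change this was -1.5 (SE 0.1, with 2 libraries per group), or 2.83-fold lower in Phf8oe, and the gene was called lower in the limma fit over all genes. The Phf8oe replicates differed by 5.6% and the ctrl replicates by 4.43% of their mean, against 2.26% and 1.19% from counting error alone.

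Golgb1, which encodes giantin, the other golgin with a membrane anchor and one of the longest, had 3852 and 3425 normalized counts in Phf8oe and 3945 and 4247 in ctrl. The groups did not overlap, yet the higher Phf8oe library came close to the lower ctrl library. The log2 fold change was -0.17 (SE 0.11), and Golgb1 was not called. The ratio of Golga5 to Golgb1 values within a library was 1.17 and 1.39 in Phf8oe and 3.4 and 3.02 in ctrl. Both Phf8oe ratios lay below both ctrl ratios, which restates the low Golga5 values and is no separate result.

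**Figure D1:**
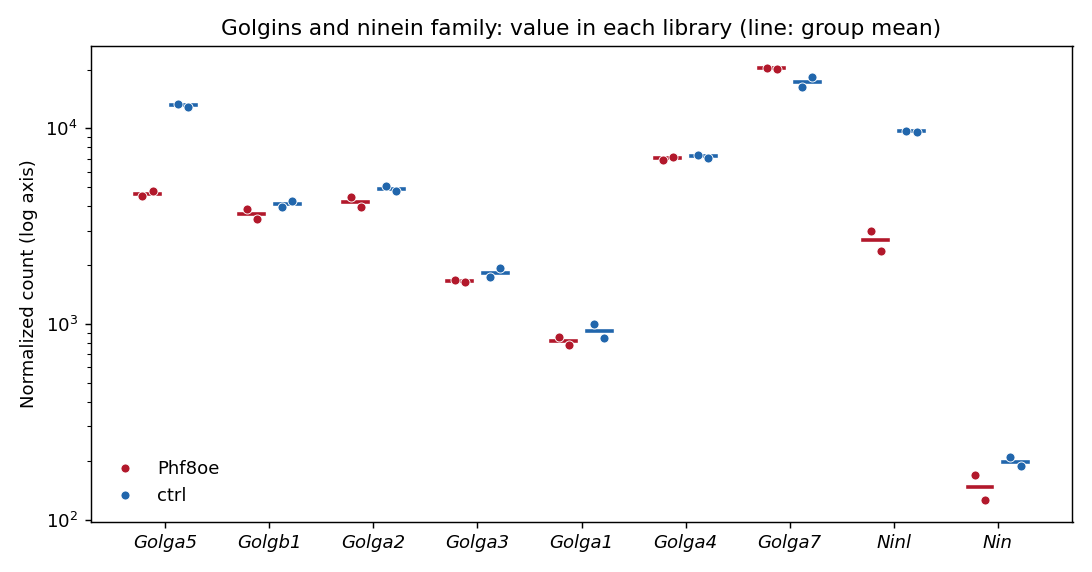
Normalized count (log axis) of each of the 9 genes in every library, with Phf8oe libraries left of ctrl libraries and a line at each group mean. Golga5 (4509 and 4769 against 13405 and 12824) and Ninl (2989 and 2367 against 9756 and 9547) stand apart between the groups, and the other 7 genes lie close together; levels of different genes are not comparable on this axis, since values are not per length.

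The golgins bound to the membrane from the cytosol were near their ctrl level. Golga2 encodes the cis-Golgi golgin that receives vesicles together with the tether Uso1 and the stacking protein Gorasp1. It had 4483 and 3949 normalized counts in Phf8oe and 5063 and 4763 in ctrl (log2 fold change -0.22, SE 0.11). The groups did not overlap, and Golga2 was not called.

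Golga3, a golgin linked to dynein and the position of the Golgi near the centrosome, had 1678 and 1647 normalized counts in Phf8oe and 1734 and 1930 in ctrl (log2 fold change -0.14, SE 0.11). All of these lay within 1647 to 1930, with the Phf8oe libraries at the low end. The groups did not overlap, and Golga3 was not called.

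Golga1 and Golga4 encode trans-Golgi golgins that the GTPase Arl1 recruits through their GRIP domains. Golga1 had 856 and 786 normalized counts in Phf8oe and 995 and 852 in ctrl (log2 fold change -0.17, SE 0.13), and the groups overlapped. Golga4 had 6907 and 7170 in Phf8oe and 7343 and 7035 in ctrl (log2 fold change -0.03, SE 0.1), and the groups overlapped here too, with a Phf8oe mean at 97.9% of the ctrl mean. Within a library, Golga5 stood at 0.653 and 0.665 times the Golga4 value in Phf8oe and at 1.83 and 1.82 times in ctrl. Of the Golga5 ratios looked at, that one repeated most closely between the replicates of each group. The ratio of Golga5 to Golga3, for example, was 2.69 and 2.9 in Phf8oe and 7.73 and 6.65 in ctrl.

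Golga7 is no coiled-coil tether but a small palmitoylated Golgi protein that partners the palmitoyltransferase of Ras proteins. It was the 1 gene of the 9 with a positive log2 fold change, with 20469 and 20199 normalized counts in Phf8oe and 16259 and 18321 in ctrl (log2 fold change 0.24, SE 0.11). The groups did not overlap, and Golga7 was not called.

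The ninein pair comes last. Ninl encodes ninein-like protein, which brings gamma-tubulin ring complexes to the centrosome and leaves it when the cell enters mitosis. Ninl had 2989 and 2367 normalized counts in the Phf8oe libraries, against 9756 and 9547 in the ctrl libraries. Both Phf8oe libraries stood far below both ctrl libraries, at a mean of 27.7% of the ctrl mean. The log2 fold change was -1.86 (SE 0.12), which is 3.63-fold lower in Phf8oe, and Ninl was called lower in the same fit. The Phf8oe replicates differed by 23.2% of their mean, against 3.03% from counting error, and the ctrl replicates by 2.17%, against 1.39%.

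Nin, which encodes ninein, the scaffold at the subdistal appendages of the mother centriole that anchors microtubules there, had 169 and 126 normalized counts in Phf8oe and 209 and 187 in ctrl. The groups did not overlap, and the log2 fold change was -0.44 (SE 0.22), which was not called. Only 177 and 89 estimated reads in Phf8oe and 247 and 184 in ctrl lay behind these values, so counting error alone gives a difference of 13% between the Phf8oe replicates, which differed by 29.2%. The ratio of Ninl to Nin values was 17.7 and 18.8 in Phf8oe and 46.7 and 51.1 in ctrl.

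**Figure D2:**
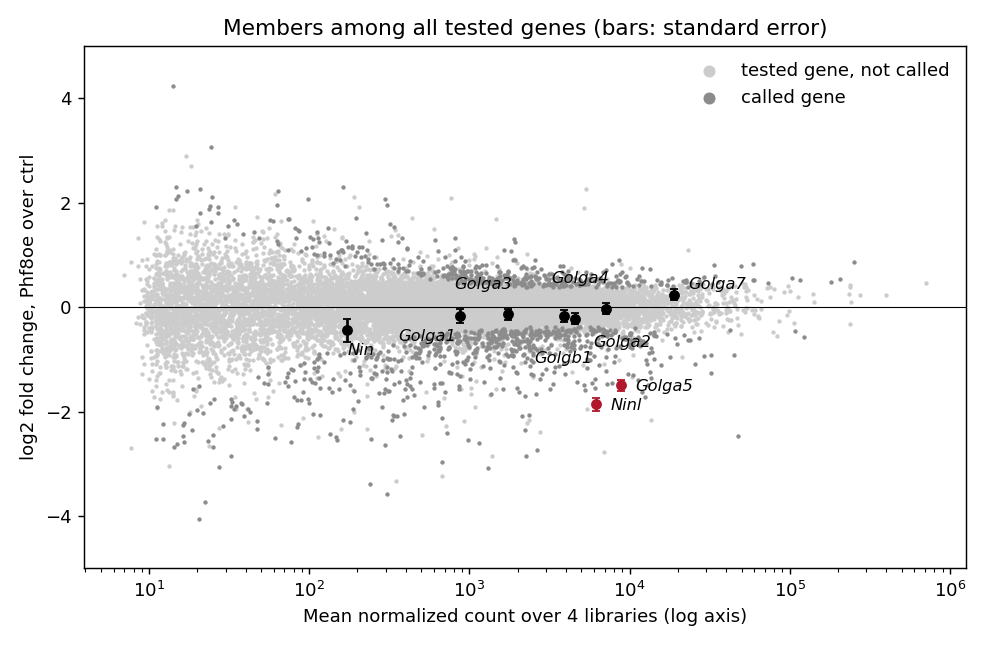
Log2 fold change of Phf8oe over ctrl against the mean normalized count (log axis) for all 14368 tested genes, with the 9 members marked by name and standard error. Golga5 (-1.5) and Ninl (-1.86) lie among called genes well below 0, and the other 7 lie between -0.44 and 0.24 among genes that were not called.

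Of the 9 genes, 2 were called lower and none higher, and all 9 had passed the filter on low values. Of all 14368 tested genes 7.64% were called, 4.65% lower and 2.99% higher; with upper quartile scaling 608 were higher and 589 lower, against 430 and 668 as deposited. By log2 fold change, counted from the lowest, Ninl ranked 99th and Golga5 180th of the tested genes. The groups did not overlap for 7 of the 9 genes, against 57.6% of all tested genes. The median log2 fold change was -0.17 for all 9 and also for the 7 without Golga5 and Ninl, of which 6 lay below 0 and 1 above; the median of all tested genes was 0.003. Because the choice of the 9 used this comparison, these counts are given for the record. In the 4 fits that each lack 1 library, Golga5 ranged from -1.54 to -1.46 and Ninl from -2.03 to -1.69 in log2 fold change, and both genes were called every time. Neither was called in the fit without a variance trend, a setting that called no gene at all.

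The span of a gene on the chromosome went with its value in this comparison. Among the 12093 tested genes placed on GRCr8 (84.2% of those tested), the median log2 fold change was 0.06 for the 5169 genes that span under 20000 bases and -0.14 for the 1808 that span 100000 or more. For Golga5, with a span of 28.2 kb, the class of 20000 to 50000 bases had a median of 0 and 3.44% of its genes called lower, and for Ninl, with 66.3 kb, the class of 50000 to 100000 bases had a median of -0.08 and 7.01% called lower. Nin spans 102 kb and so belongs to the class at -0.14, and Golga7 has the shortest span with 15.3 kb. The part of gene span in the members' values was not tested.

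The genes next to Golga5 and Ninl on the chromosome were looked at after their values were seen. Of the 3 tested genes on each side of Golga5 none was called. The nearest, Lgmn, which encodes the lysosomal protease legumain, had 25657 and 21345 normalized counts in Phf8oe and 33444 and 30946 in ctrl (log2 fold change -0.46, SE 0.12, limma adjusted p = 0.0528), and on the other side the neuroendocrine granule gene Chga was at 14 or fewer in all 4 libraries. None of the 6 tested neighbours of Ninl was called either. Gins1, a subunit of the replicative helicase complex, had the value farthest from 0 there, with 345 and 399 in Phf8oe and 232 and 262 in ctrl (log2 fold change 0.59, SE 0.18, limma adjusted p = 0.0734). No annotated gene overlapped Golga5 or Ninl on GRCr8, whereas Golga1 overlapped Arpc5l.

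**Figure D3:**
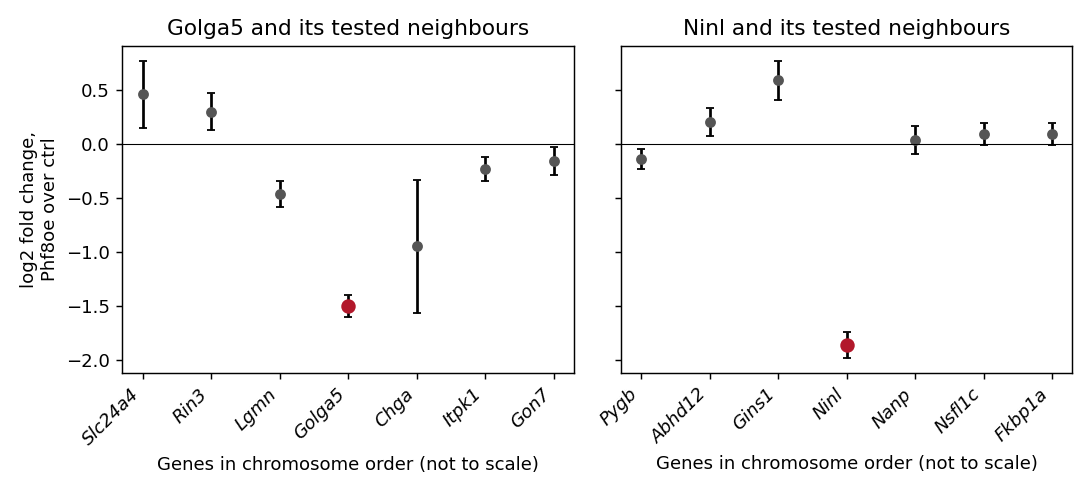
Log2 fold change of Phf8oe over ctrl, with standard errors, for Golga5 (left) and Ninl (right) and the 3 tested genes on each side in chromosome order on GRCr8. Golga5 (-1.5) and Ninl (-1.86), picked with their low values in view, are the lowest of their rows. The neighbours of Golga5 lie between -0.95 (Chga, at 14 or fewer normalized counts) and 0.46, and those of Ninl between -0.14 and 0.59.

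Profiles nearest to those of Golga5 and Ninl over the 4 libraries were sought among 10599 genes with a mean value of at least 100, by the Euclidean distance between mean-centred log2 values. Nearest to Golga5 were Rorb, an orphan nuclear receptor, with 56 and 59 normalized counts in Phf8oe and 167 and 154 in ctrl (distance 0.0511), then Reln, the secreted signal reelin (distance 0.101), and Plce1, a phospholipase C (distance 0.168). Reln had 6947 and 6748 normalized counts in Phf8oe and 19228 and 19361 in ctrl. Nearest to Ninl were Sv2c, a synaptic vesicle protein, with 235 and 193 in Phf8oe and 699 and 682 in ctrl (distance 0.171), then Kcnab1, a potassium channel subunit (distance 0.2), and Rxrg, a retinoid X receptor (distance 0.276). With 4 libraries many genes share such a profile: 91 lay within a distance of 0.5 of Golga5 and 16 within that of Ninl. Counting error was not worked out for these genes, so their order is not settled, least of all for Rorb with its low counts.

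The rest of the machinery of these scaffolds was taken from 9 lists with 157 tested genes, of which 6 fell, none rose and 151 did not pass the test. That is 3.82% called, all lower, against 4.65% of all tested genes called lower and 7.64% called in either direction. The list of other golgins and Golgi tethers held 2 of the 6 among 15 tested genes, 12 of which lay below 0, with a median log2 fold change of -0.18. Cux1, which encodes a homeodomain factor and, by alternative splicing, the Golgi protein CASP that pairs with the Golga5 product in vesicle tethering, had 2324 and 2278 normalized counts in Phf8oe and 3176 and 3184 in ctrl (log2 fold change -0.47, SE 0.1, limma adjusted p = 0.026). The counts of these products cannot be told apart. Trip11, the cis-Golgi golgin that catches vesicles through a lipid-packing sensor, had 2468 and 2206 in Phf8oe and 3236 and 3185 in ctrl (log2 fold change -0.46, SE 0.1, limma adjusted p = 0.0327).

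Of 18 GTPase and exchange factor genes Arfgef2, an activator of Arf proteins at the trans-Golgi, fell, with 2875 and 2720 normalized counts in Phf8oe and 3925 and 3700 in ctrl (log2 fold change -0.45, SE 0.1, limma adjusted p = 0.0312). The other 17 did not pass, and the median was 0.01. On the centrosome side, 1 of 19 scaffold genes fell: Cdk5rap2, which recruits gamma-tubulin to centrosomes and to the Golgi, had 1263 and 1315 in Phf8oe and 1893 and 1894 in ctrl (log2 fold change -0.55, SE 0.1, limma adjusted p = 0.0184). Of 14 genes of the gamma-tubulin ring and of microtubule minus ends 1 fell, Camsap2, which protects free minus ends at the Golgi, with 6234 and 6355 in Phf8oe and 9181 and 9040 in ctrl (log2 fold change -0.53, SE 0.09, limma adjusted p = 0.0147). Of 26 dynein, dynactin and adaptor genes 1 fell, Dync1h1, the dynein heavy chain, with 9683 and 7861 in Phf8oe and 15755 and 13433 in ctrl (log2 fold change -0.74, SE 0.13, limma adjusted p = 0.0158). The medians of these 3 lists were 0, -0.11 and -0.04. With 4.65% of all tested genes called lower, 1 lower call in a list of this size is no result about the list.

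The call of each of these 6 genes was lost without ctrl replicate 1 or without ctrl replicate 2, where the highest adjusted p were 0.327 and 0.156, while the log2 fold changes in those fits stayed between -0.85 and -0.4. Of the 157 genes, 7 were called without Phf8oe replicate 1 and 13 without Phf8oe replicate 2 (10 lower, 3 higher).

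No gene passed the test among 11 of the COG and GARP complexes, 15 Golgi SNAREs and regulators, 18 COPI and COPII coat genes and 21 Golgi enzymes and residents, with medians of 0.06, -0.05, 0.02 and -0.06. The values of these 4 lists stayed within -0.32 and 0.33. Copa, the alpha subunit of the COPI coat, had 13832 and 12984 normalized counts in Phf8oe and 14583 and 15135 in ctrl (log2 fold change -0.15, SE 0.1), and Copz1, its zeta subunit, stood at 0.17 (SE 0.1). Galnt2, which starts O-glycans, stood at -0.12 (SE 0.1) and the sialyltransferase gene St6gal1 at -0.01 (SE 0.09). Vps52 of GARP stood at 0.06 (SE 0.13), Cog4 at 0.09 (SE 0.1), and Sec22b and Napa, which serve SNARE-driven fusion, at -0.02 (SE 0.1) and -0.05 (SE 0.11).

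Besides Cux1 and Dync1h1, which fell as given above, 5 other known partners of the members or of Golgi outposts were picked after their values were seen. Uso1 and Gorasp1, which work with Golga2, had log2 fold changes of -0.17 (SE 0.1) and 0.18 (SE 0.11). Rab1a, a GTPase that binds Golga5 and Golga2, had 8221 and 8508 normalized counts in Phf8oe and 8078 and 8334 in ctrl (log2 fold change 0.03, SE 0.1), and Arl1, which recruits Golga1 and Golga4, stood at 0.12 (SE 0.12). Tppp, a protein of the Golgi outposts of oligodendrocytes that promotes microtubule growth there, had 2325 and 1783 in Phf8oe and 2043 and 2364 in ctrl (log2 fold change -0.11, SE 0.15), and the groups overlapped. None of these 5 genes was called.

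**Figure D4:**
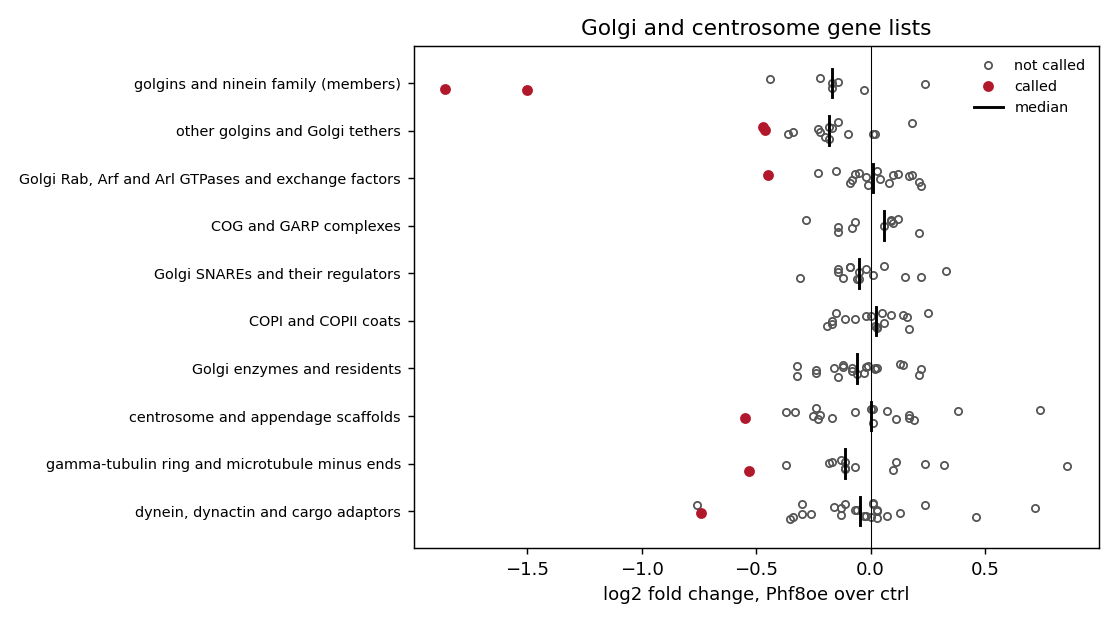
Log2 fold change of Phf8oe over ctrl for each tested gene of the 9 members and of the 9 lists of Golgi and centrosome genes, with called genes filled and a bar at each median. Golga5 (-1.5) and Ninl (-1.86) are the lowest points, and the 6 called genes of the lists lie between -0.74 and -0.45.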

How the data were processed

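Values from 4 RNA-seq libraries (pairs of 150-base reads per the labels) were used. The submitters' processing notes name bcl2fastq 2.20, Trimmomatic 0.36, STAR 2.5.2b, DESeq2 and the rat builds rn6 and Rnor_6.0. No source used here gives the gene counter, annotation release or strand setting. The signal the authors deposited holds normalized counts, although its label says raw: all 85 whole numbers from 10 to 300 that scaled, rounded reads would skip in Phf8oe replicate 2 were absent, and all 5 in ctrl replicate 2. The value of 1 read was 0.9548 and 1.4159 in Phf8oe and 0.8445 and 1.0176 in ctrl. It was read from how often each whole number occurred. In replicate 1 of each group, where it lay below 1, no whole number is skipped and some occur more often instead. Dividing totals by this value gave the estimated reads.

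Genes reaching a value of 10 in 2 or more libraries (14368) were tested on log2(value + 1) with limma (version 3.58.1, R version 4.3.3), which understates the change of low genes. The group was the only term, with robust variance moderation following the mean level; tests were two-sided, with Benjamini-Hochberg adjustment over all tested genes at a threshold of 0.05. A count model had not been planned, since it needs unscaled counts. Counting errors cover counting only.

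Members and lists were chosen with earlier results of these data known. Named are all members, Phf8, per list up to 4 called genes in order of p (2 by abundance where none was called), and the 3 genes nearest to Golga5 and to Ninl. A planned split by protein length was replaced by gene span on GRCr8, and no order of levels between genes is given, since no coding lengths were used here; ratios of 2 genes within a library serve only to compare the groups. Alternatives were other pseudocounts, filters, scalings and variance settings, a replicate block and leaving out each library. Other tools were Python 3.11.15 with numpy 2.4.6 and pandas 2.3.3.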

Additional observations from a re-analysis of the deposited data

How the results depend on the processing

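Golga5 and Ninl were called lower under 14 of 15 alternatives, with log2 fold changes of -1.54 to -1.46 and -2.03 to -1.69; without a variance trend 0 of the 9 members and 0 of all genes were called. Golga5 and Ninl had been picked with their low values in these same libraries in view, so their calls in these refits are no separate evidence. The other 7 members were called under none of the 15, and only Golga4 did not keep its sign (-0.06 to 0.01). Over all genes, 1098 calls became 373 with the replicate block and ranged from 20 to 2145 with a library left out (20 without ctrl replicate 1, 190 without ctrl replicate 2, 1848 without Phf8oe replicate 1, 2145 without Phf8oe replicate 2). Of the genes in the Golgi and centrosome lists, 6 were called, against 1 with the replicate block (Dync1h1) and between 0 and 13 with a library left out. Replicate numbers are shared by label only, and the replicate differences of the groups correlated at -0.126 over genes, so the block was not taken as a pairing; it left both Golga5 and Ninl called. Crossed pairing, added after seeing the data like limma-voom on estimated reads, called 2354 genes, 2 of the members and 12 of the list genes. The causes of these shifts were not tested; with 1 library left out the spread is measured in the other group alone. Nin, with the fewest reads of the 9, is the member whose depth limits it most.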
